A study of Drosophila melanogaster with 4 samples.

Results

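The regions described here are the short H3K9me1 domains of chromosome arm 3R, mapped in third-instar larval nuclei of the fruit fly Drosophila melanogaster, wild-type strain Oregon-R. H3K9me1 is histone H3 carrying a single methyl group on lysine 9, and a domain is a region that the authors listed as enriched for it by chromatin immunoprecipitation and sequencing (ChIP-seq). The members were chosen by 3 measured values of the authors' combined list: listing as enriched on 3R, a length under 10 kb and a midpoint above 2 Mb. The rule took 2619 of the 13702 domains of that list. The study holds 4 samples, 2 ChIP libraries made with an H3K9me1 antibody (new lot 2) and 2 input libraries of unprecipitated chromatin, each input serving as the background of the ChIP library with the same number. All 4 libraries share the strain, genotype and stage, and no treatment is named. The labels name larval nuclei and no tissue, and fewer cells carrying the mark and less of the mark per cell cannot be told apart.

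Mono-methylation of lysine 9 is the first of 3 methylation steps at this residue. In flies the later steps, H3K9me2 and H3K9me3, are bound by the protein HP1 and mark heterochromatin around the centromeres and on chromosome 4. Arm 3R is the right arm of the third chromosome, and its centromere lies next to the low end of the coordinates. The stretch past 2 Mb is mostly euchromatin, the gene-rich and less condensed part of the arm. No genome or gene annotation on the build of the files was used here, so members are given by position on FlyBase release 5, without genes and without sequence.

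Short domains were spread along the whole stretch of 25.9 Mb and took up more of it than the long ones. The 2619 members covered 7.05 Mb, which was 27.2% of the stretch. The 178 domains of 10 kb or more on the same stretch covered 12.7%. Short domains also covered more than long ones in each replicate list, by different margins. By the same rule, replicate 1 listed 1555 short domains, covering 18.3% of the stretch, and replicate 2 listed 2182, covering 23.9%. The mean was 21.1% ± 3.94 (SD, n = 2). The order turned round for domains of 10 kb or more, of which replicate 1 had 181 over 12.8% of the stretch and replicate 2 had 61 over 3.14%. With all lengths together, replicate 1 covered 31.1% and replicate 2 covered 27.0%. The 2 replicates allow no exact two-sided p below 0.5, and the combined list is the authors' list for the same pair of ChIP libraries, so differences between lists and along the arm carry no test.

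The long combined domains show where some of the short domains of replicate 2 lie. Over the 178 long domains, replicate 1 listed 143 domains of 10 kb or more and 95 shorter ones, which together covered 94.3% of their bases. Over the same sequence replicate 2 listed 59 domains of 10 kb or more and 456 shorter ones, which together covered 76.5%. Thus 449 of the short domains of replicate 2 overlapped long combined domains and no member, against 90 of those of replicate 1.

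Most members were short. Their median length was 1974 bp, with quartiles at 1376 and 3213 bp, and 1348 of them (51.5%) measured under 2 kb. A further 326 (12.4%) measured 5 kb or more. The shortest had 1001 bp, while the replicate lists started at 1303 bp in replicate 1 and 1301 bp in replicate 2. The authors' score, whose scale the sources used here do not give, ran from 0.019 to 2.57 with a median of 0.360 over the members. Longer members tended to score higher, with a Spearman's rho of 0.59 across the 2619 members, which share the same libraries. This order did not hold among the shortest members. The median score was 0.331 under 1301 bp and 0.291 from 1301 bp to under 2000 bp. At the limit of length, the longest member had 9996 bp and a score of 0.616, and the shortest domain left out had 10078 bp and a score of 0.813. At the limit of position, the first member ran from 2017264 to 2018671 with a score of 0.211, and the last short domain before it ran from 1991906 to 1993995 with a score of 0.445.

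Members were unevenly spread at the scale of 500 kb. The stretch held 51 full windows of this size, with a lowest count of 17 members, a median of 51 and a highest of 84. The 13 windows with most members held 35.0% of the members in full windows, and the 13 with fewest held 16.1%. Each set is 25.5% of the windows. The windows were ranked by these same counts, so part of the departure follows from the ranking. In replicate 1 the count ran from 7 to 51 with a median of 28, and in replicate 2 from 21 to 69 with a median of 39. Replicate 2 listed more short domains in 42 windows, replicate 1 in 8, and 1 window was tied.

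**Figure D1:**
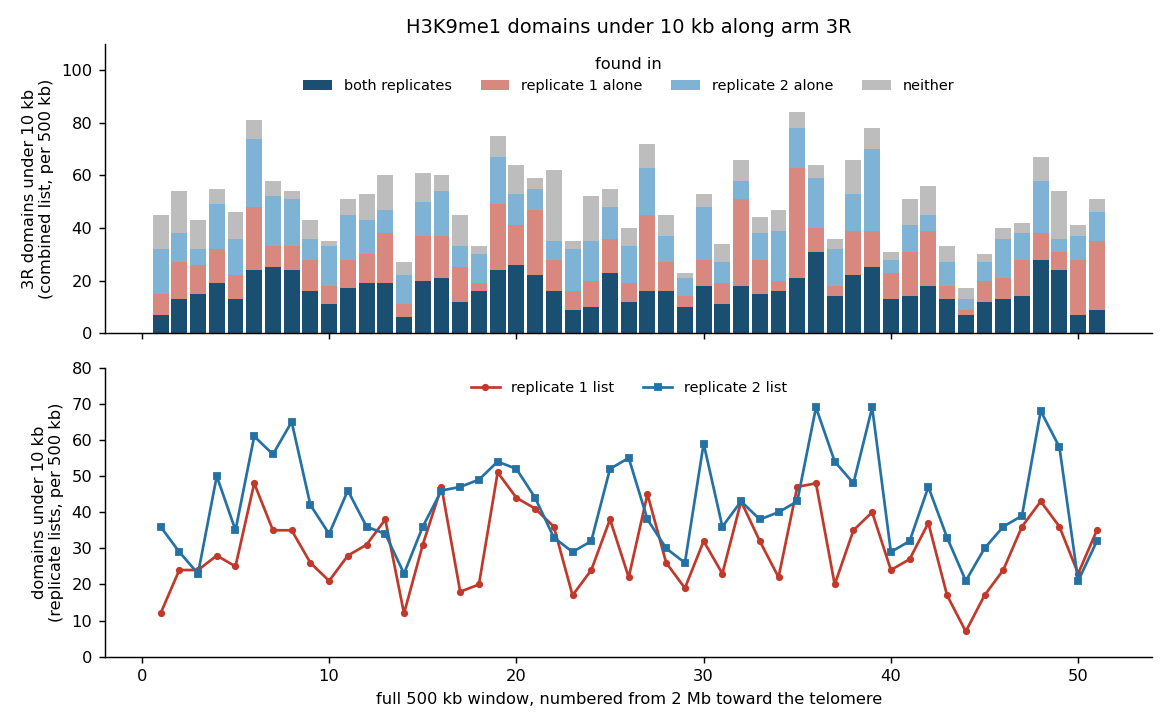
Number of domains under 10 kb in each of 51 full windows of 500 kb along arm 3R, numbered from 2 Mb toward the telomere. The upper bars give the members of the combined list, split by the replicate lists in which they were found, and the lower lines give the replicate lists; the bars run from 17 to 84, and replicate 2 lies above replicate 1 in 42 windows.

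The densest window lay from 19.0 to 19.5 Mb, with 84 members over 46.8% of its length. Domains of 10 kb or more covered 15.8% of it in replicate 1, 2.21% in the combined list and 0% in replicate 2. Replicate 1 listed 47 short domains there and replicate 2 listed 43. It was followed by the windows from 4.5 to 5.0 Mb with 81 members, from 21.0 to 21.5 Mb with 78, from 11.0 to 11.5 Mb with 75 and from 15.0 to 15.5 Mb with 72. These 5 windows lay apart from each other, with no pair of neighbours among them. Replicate 1 listed 48 short domains in the window from 4.5 Mb, 51 in that from 11.0 Mb and 45 in that from 15.0 Mb, all above its median of 28. Replicate 2 listed 61 in the window from 4.5 Mb and 54 in that from 11.0 Mb, but 38 in that from 15.0 Mb, which is below its median of 39. The dense windows also differed in the replicate behind their members. In the window from 19.0 Mb, 42 of the 84 members were found in replicate 1 alone and 15 in replicate 2 alone. In the window from 21.0 Mb, 14 of 78 were found in replicate 1 alone and 31 in replicate 2 alone, and there replicate 2 listed 69 short domains against 40 in replicate 1.

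The sparsest window lay from 23.5 to 24.0 Mb, with 17 members over 7.15% of its length. Replicate 1 listed 7 short domains in it and replicate 2 listed 21. The next windows were those from 16.0 to 16.5 Mb with 23 members, from 8.5 to 9.0 Mb with 27, from 24.0 to 24.5 Mb with 30 and from 21.5 to 22.0 Mb with 31. The first and the fourth of these are neighbours, so that 23.5 to 24.5 Mb formed a sparse megabase. The window from 21.5 Mb, in turn, directly follows a dense one. Long domains covered between 4.68% and 11.5% of each of the 5 sparse windows, against 12.7% of the whole stretch. Across the 51 windows, the member count and the share in long domains had a Pearson r of 0.013 (Spearman's rho 0.0069), as a description of neighbouring windows that share libraries.

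The profiles of the replicates were closer in bases covered by domains of any length than in counts or bases of short domains. Across the 51 windows, the counts of short domains in the 2 replicate lists had a Pearson r of 0.59 and a Spearman's rho of 0.57. The share of each window covered by short domains had an r of 0.58 and a rho of 0.60, near the values of the counts. The share covered by domains of any length had an r of 0.79 and a rho of 0.82. Neighbouring windows are not independent, so these coefficients carry no p. Of the 13 densest windows of each replicate list, 7 (53.8%) were the same, and of the 13 sparsest, 5 (38.5%) were the same, where 13 windows are 25.5% of all 51. The sets of dense and sparse windows thus differed in good part between the replicates. The counts of the combined list followed replicate 1 (r = 0.88) more closely than replicate 2 (r = 0.58). These counts leave out domains of 10 kb or more. Only such combined domains were overlapped by 449 short domains of replicate 2, against 90 of replicate 1. The effect of this on r was not tested. Members found in 1 replicate alone were similar in number, 675 for replicate 1 and 677 for replicate 2.

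The 3 windows whose covered share differed most were covered more by replicate 1. In the window from 17.5 to 18.0 Mb replicate 1 covered 52.1% and replicate 2 covered 25.3%, and long domains made up 28.9% of the window in replicate 1 and 2.28% in replicate 2. The count of short domains there was 43 in both lists. The window from 27.0 to 27.5 Mb had a covered share of 48.2% in replicate 1 and of 22.8% in replicate 2. In that from 19.0 to 19.5 Mb it was 42.9% in replicate 1 and 20.8% in replicate 2. In the other direction the difference was smaller. Replicate 2 covered 15.5% of the window from 13.0 to 13.5 Mb and replicate 1 covered 9.04%, and no long domain of the 3 lists reached into it. Replicate 1 covered more in 36 windows and replicate 2 in 15.

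**Figure D2:**
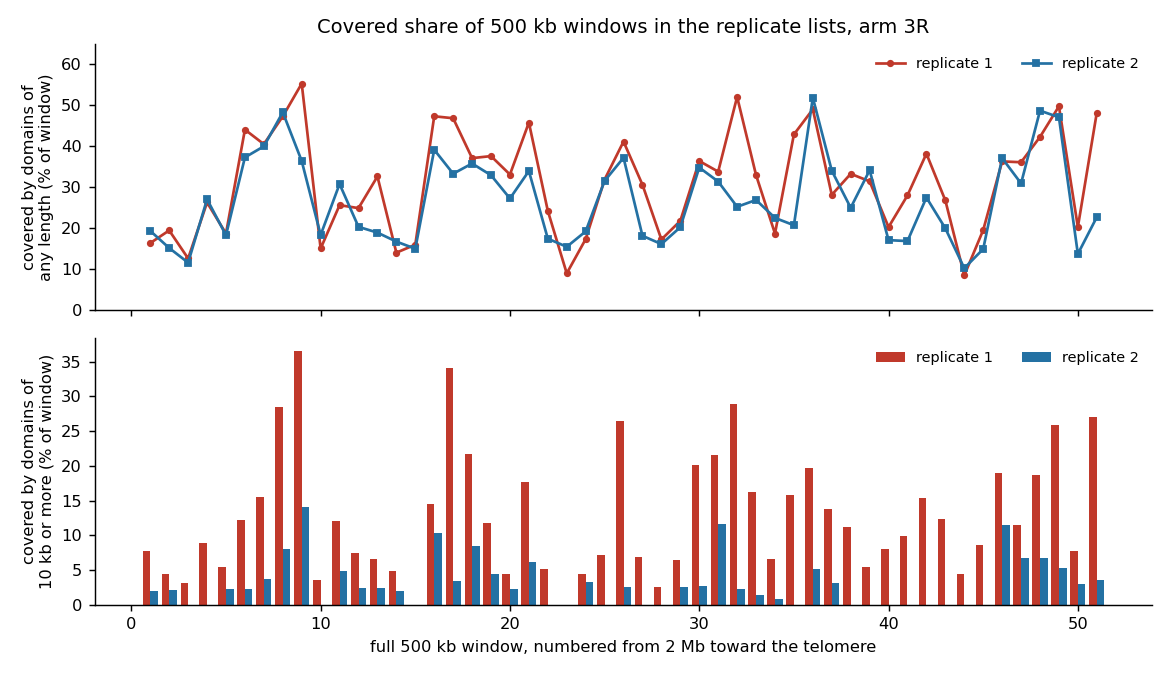
Share of each full 500 kb window of arm 3R covered by domains of any length (upper lines, percent) and by domains of 10 kb or more (lower bars, percent) in the lists of replicate 1 and replicate 2. The upper lines rise and fall together (r = 0.79), while long domains covered 12.8% of the stretch in replicate 1 against 3.14% in replicate 2.

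In blocks of 5 Mb the density varied less, which averaging over longer pieces tends to bring by itself. From 2 to 7 Mb there were 102.8 members per Mb, from 7 to 12 Mb 105.8, from 12 to 17 Mb 99.2, from 17 to 22 Mb 110 and from 22 to 27 Mb 86.2. The last 0.905 Mb, up to the end of the arm at 27905053, held 109 per Mb, with 99 members. The block with fewest per Mb is the one that contains the sparse megabase. Median length varied between 1855 bp in the block from 12 Mb and 2053 bp in that from 17 Mb among the 5 full blocks. The last piece had a median of 2298 bp. Median scores lay between 0.352 and 0.373 in all 6 pieces.

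Neighbouring members mostly lay close together. The 74 gaps over 50 kb added up to 6.81 Mb, long domains inside them included. The median gap was 1661 bp, and 1413 of the 2618 gaps (54.0%) measured 2 kb or less. The upper quartile was 5468.5 bp, and 10% of the gaps exceeded 17240 bp. The mean, 7190 bp, was 4.33 times the median, and the SD over the gaps was 18135 bp. In the replicate lists the median gap was 3052.5 bp in replicate 1 and 2839 bp in replicate 2, and gaps of 2 kb or less made up 42.1% in replicate 1 and 41.4% in replicate 2. The tighter spacing of the combined list goes with its larger number of members. The sources used here do not say how the list was made.

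**Figure D3:**
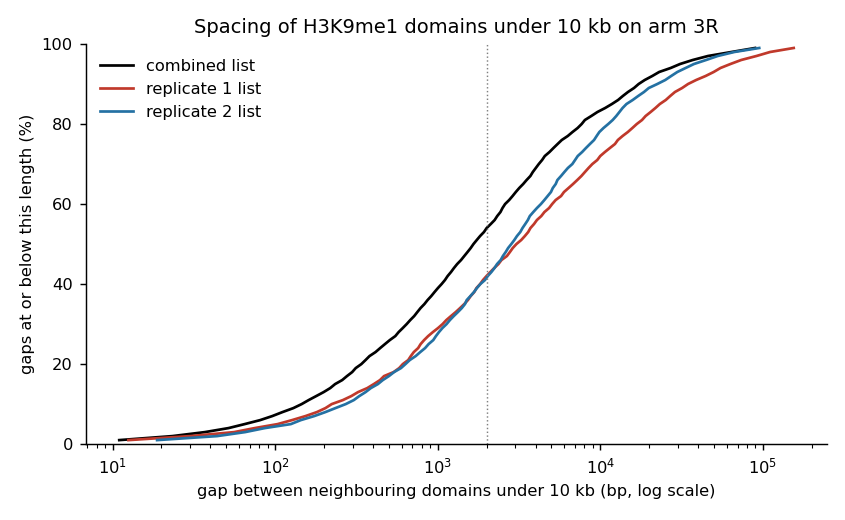
Percentiles 1 to 99 of the gap between neighbouring domains under 10 kb on arm 3R (horizontal axis in bp, log scale) for the combined list and both replicate lists, with a dotted line at 2000 bp. At that line the combined list stands at 54.0% of its gaps, replicate 1 at 42.1% and replicate 2 at 41.4%.

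Some gaps between members hold long domains, and most of the widest do not. A long domain lay in 148 of the 2618 gaps. Of the 74 gaps over 50 kb, 21 held one. When domains of every length were counted, 58 gaps over 50 kb remained, and they added up to 5.54 Mb or 21.4% of the stretch. The widest gap ran from 23814319 to 24142149 and measured 328 kb. It held no domain of the combined list and none of replicate 1, while 3 short domains of replicate 2 covered 1.39% of it. The next ran from 8571140 to 8780999 (210 kb), again with none of replicate 1, and with 2 short domains of replicate 2 over 1.04%. The third, from 15883374 to 16077760 (194 kb), held 2 short domains of replicate 1 and 1 of replicate 2. The fourth, from 23561455 to 23744076 (183 kb), held a long combined domain of 11355 bp, and domains took up 6.27% of it in replicate 1 and 6.46% in replicate 2. The fifth, from 16153660 to 16333689 (180 kb), held 1 short domain that touched 0.108% of it in replicate 1 and none in replicate 2. Apart from that long domain, both replicate lists had little in these 5 gaps. The gaps were picked for holding no member, and the combined list rests on the same libraries. Most short domains overlapped a combined domain, 94.9% in replicate 1 and 93.3% in replicate 2. The low content was thus largely set by the choice and is no separate evidence from the replicates. The first and the fourth gap lie within the sparse megabase, and the third and the fifth lie 75.9 kb apart. How much of these gaps can be mapped by reads was not tested.

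Clusters were defined as runs of 5 or more members with gaps of at most 2 kb. There were 117 of them, holding 799 members (30.5%), and 13 held 10 or more. Their spans ran from 10.8 to 59.3 kb with a median of 21.0 kb, and together they took up 2.72 Mb, or 10.5% of the stretch. By this definition no domain of 10 kb or more can lie inside a cluster. At the other extreme, 615 members (23.5%) had no other member within 2 kb. Of the 51 windows, 5 held no start of a cluster, and the most, 7, started in the window from 19.0 to 19.5 Mb. By the same definition replicate 1 had 38 clusters with 15.9% of its short domains, and replicate 2 had 51 with 15.3%.

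The cluster with most members ran from 4940383 to 4997584, with 17 members of 1089 to 6047 bp over 81.3% of 57.2 kb. Replicate 1 covered 67.7% of it and replicate 2 covered 38.3%. Of its members, 6 were found in both replicates, 6 in replicate 1 alone, 3 in replicate 2 alone and 2 in neither. The second ran from 8073153 to 8132453, the longest span, and held 14 members. It rested on replicate 1, which covered 83.1% of it, while replicate 2 covered 5.80% with 2 domains. The third, from 6641071 to 6685399 with 13 members, lay to 59.4% in domains of replicate 1, of up to 17764 bp, and to 37.5% in those of replicate 2. The fourth, from 21111059 to 21150961 with 13 members, was the one of the 5 that replicate 2 covered more, at 83.1% against 55.7% in replicate 1. The fifth, from 15607075 to 15656144 with 12 members, had 69.0% of its span listed in replicate 1 and 42.9% in replicate 2. Over all 117 clusters, replicate 1 covered a median of 64.8% of the span and replicate 2 a median of 46.0%. Replicate 1 covered more in 72 clusters and replicate 2 in 45. At least 1 member found in both replicates occurred in 100 clusters, and in 2 clusters all members were found in both.

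**Figure D4:**
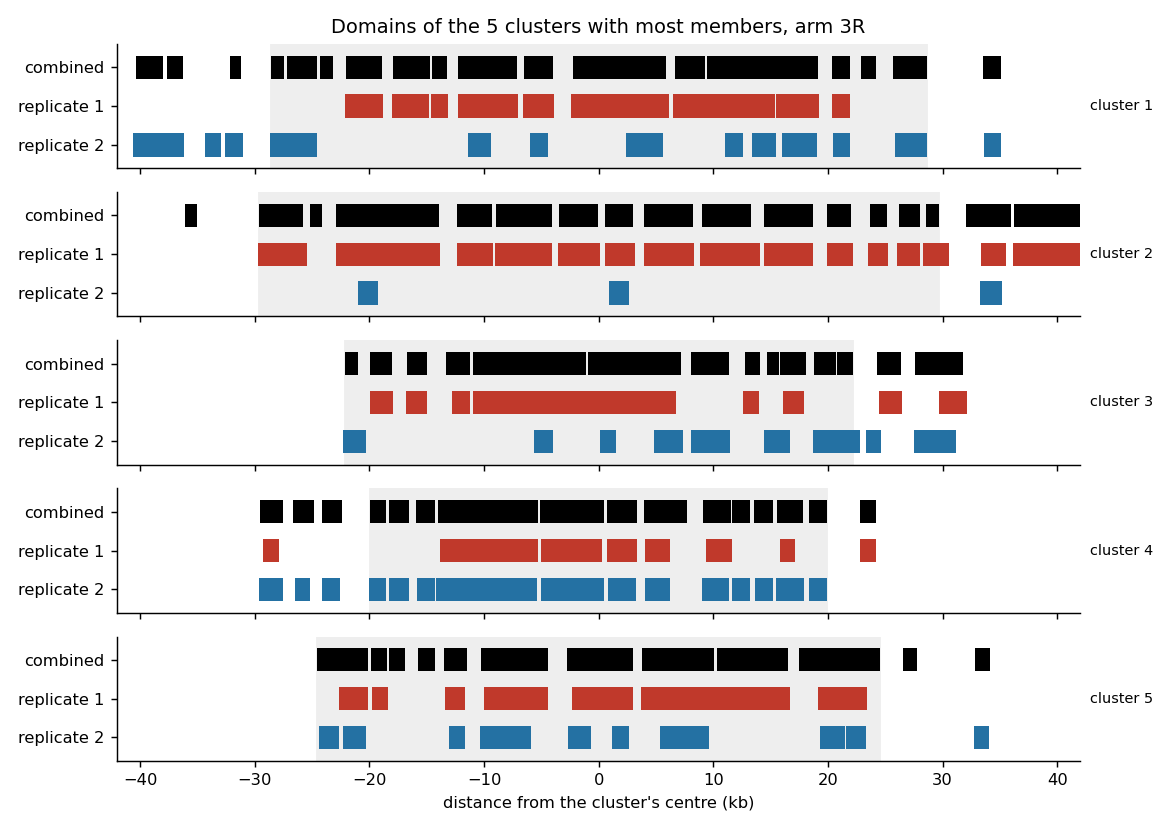
Domains of the 5 clusters with most members on arm 3R, as bars along the distance from each cluster's centre (kb), in the combined list and the lists of replicate 1 and replicate 2, with the cluster's span shaded. Replicate 2 holds 2 bars within the second cluster, which it covers to 5.80%, and covers the fourth to 83.1%.

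Support by the replicate lists was counted as an overlap of 1 bp or more with a domain of any length. Of the 2619 members, 862 (32.9%, exact 95% binomial interval 31.1 to 34.8%) overlapped both replicates, 675 (25.8%) replicate 1 alone, 677 (25.8%) replicate 2 alone and 405 (15.5%, interval 14.1 to 16.9%) neither. Over all 12859 domains under 10 kb of the combined list, members included, 33.9% overlapped both, 22.5% replicate 1 alone, 30.6% replicate 2 alone and 13.1% neither. The share found in both on 3R lies near that background. Intervals cover counting error only, and neighbouring domains are not independent. By bases, replicate 1 covered 64.1% of the members' sequence and replicate 2 covered 55.2%, with 30.8% in both lists and 11.4% in neither.

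The replicate lists can also be set against each other without the combined list. On this stretch 937 of the 1555 short domains of replicate 1 (60.3%, interval 57.8 to 62.7%) overlapped a domain of replicate 2. Of the 2182 of replicate 2, 1443 (66.1%, interval 64.1 to 68.1%) overlapped one of replicate 1. Domains that were found again were longer in both lists, with a median of 2615 bp against 1909 bp for those not found in replicate 1, and 2461 against 1912 bp in replicate 2. Their median scores were 0.589 against 0.493 in replicate 1 and 0.567 against 0.501 in replicate 2. In all, 80 short domains of replicate 1 and 146 of replicate 2 overlapped no combined domain.

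Support differed between members by length. Among the 537 members under 1301 bp, which are shorter than any domain of the replicate lists on this stretch, 5 (0.931%) were found in both replicates and 270 (50.3%) in neither. From 1301 bp to under 2000 bp, 10.6% of 811 were found in both. The share was 43.9% of 538 from 2000 bp to under 3000 bp, 60.9% of 407 from 3000 bp to under 5000 bp and 88.0% of 326 from 5000 bp. Of the 733 members of 3000 bp or more, 0 were without a replicate domain. The exact upper limit of 0.502% treats members as independent, which neighbouring members of the same libraries are not. A longer member has more sequence in which to meet a replicate domain, and this was not separated from the trend. Support also differed by score. Of the 655 members with the highest scores, from 0.453 up, 77.3% were found in both, against 11.0% of the 655 with the lowest. In each length class from 2000 bp up, the share found in both was higher at or above the median score than below it. It was 52.3% against 22.4% from 2000 bp to under 3000 bp and 68.6% against 31.8% from 3000 bp to under 5000 bp. From 5000 bp it was 90.1% of 312 against 42.9% of 14. In the shorter classes the order turned round, with 5.17% against 11.5% from 1301 bp to under 2000 bp. Under 1301 bp, 1 of 174 members at or above the median score and 4 of 363 below it were found in both.

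**Figure D5:**
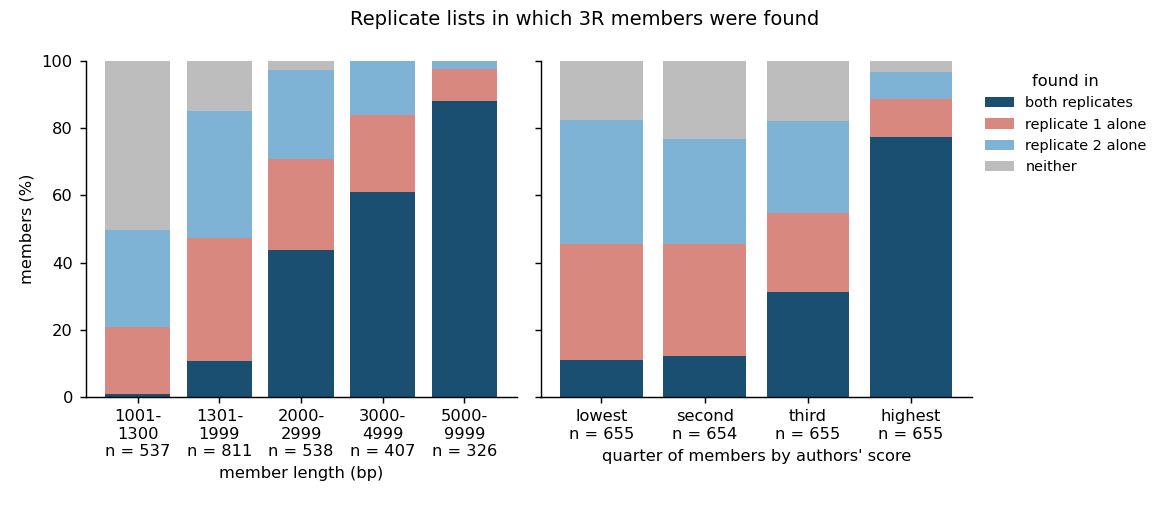
Share of 3R members (percent) found in both replicate lists, in replicate 1 alone, in replicate 2 alone and in neither, by length class (left) and by the authors' score cut into 4 groups of 654 or 655 members (right), with the number of members under each bar. The share found in both is 0.931% in the shortest class and 88.0% in the longest, and 11.0% in the group of lowest and 77.3% in that of highest scores.

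Members without a replicate domain were short. Of these 405, 270 (66.7%) measured under 1301 bp, and the longest had 2875 bp. Their median distance to the next combined domain was 930 bp, against 596 bp over all members and 363 bp for those found in both. It was 890 bp for members found in replicate 2 alone and 530 bp for those found in replicate 1 alone. The next replicate domain lay at a median of 1474 bp, with 231 of the 405 within 2 kb of one and 37 over 10 kb from any. Members found in neither had a median score of 0.335, those found in both 0.496. The medians were 0.334 in replicate 1 alone and 0.322 in replicate 2 alone, so a lower score was not particular to members found in neither.

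The surroundings of a member went with its support. Members within 2 kb of a long domain numbered 177, and 53.1% of them were found in both replicates, against 31.4% of the other 2442. Found in neither were 7.34% of those near a long domain and 16.1% of the others. They were also longer, with a median of 2751 bp against 1938.5 bp. A total of 67 members had no other combined domain within 10 kb. Of these, 11.9% were found in both, 14.9% in replicate 1 alone, 52.2% in replicate 2 alone and 20.9% in neither, and their median length was 1333 bp. Members in clusters were found in both in 35.0% and in replicate 1 alone in 33.8%. Outside clusters 32.0% were found in both and 22.3% in replicate 1 alone, while replicate 2 alone held 19.6% of the clustered members and 28.6% of the others. Neither list held 11.5% of the clustered members and 17.2% of the others.

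Support also ran in series along the arm. After a member found in replicate 1 alone, the next member had the same support in 47.3% of 675 cases, against a share of 25.8% over all members. For replicate 2 alone it was 44.5% of 677 against 25.8%, for both 45.1% of 861 against 32.9%, and for neither 28.1% of 405 against 15.5%. A single long domain of 1 replicate can span several members, so these successions are not independent events. The longest run found in replicate 1 alone had 14 members, from 19282466 to 19339537. There 6 domains of replicate 1 covered 94.2% of 57.1 kb, and replicate 2 listed nothing. The longest run in replicate 2 alone had 15 members, from 4897685 to 4944420, where 9 domains of replicate 2 covered 61.2% and replicate 1 listed nothing. Its distal end overlaps the start of the cluster with most members, so that support changed within that cluster. The longest run found in both had 9 members, from 8228781 to 8271490, and that in neither had 7, from 12503342 to 12530696. Those 7 members measured 1091 to 1623 bp with scores of 0.243 to 0.390, and neither replicate listed any domain in these 27.4 kb.

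In the 5 full blocks of 5 Mb the share found in both lay between 30.6% (interval 26.6 to 34.9%) from 12 to 17 Mb and 34.8% (interval 30.3 to 39.5%) from 22 to 27 Mb. These intervals overlap, but they cover counting error only, and differences between blocks were not tested. The share found in neither lay between 12.4% from 17 to 22 Mb and 17.9% from 12 to 17 Mb. In the last piece 27.3% of 99 members were found in both, with an interval of 18.8 to 37.1% that includes the values of the other blocks. At 500 kb, 21 of the 84 members of the densest window were found in both, and 7 of the 17 of the sparsest.

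The named members by score were the 5 highest among the 636 covered to 50% or more by each of the replicate lists. The first ran from 8521374 to 8530193 (8820 bp) with a score of 1.29, and a single domain of each replicate covered 96.4% of it in replicate 1 and 99.9% in replicate 2. It lies 40.9 kb before the second widest gap. The second, from 2224304 to 2232181 (7878 bp) with a score of 1.26, lay wholly within a domain of 11928 bp of replicate 1, and replicate 2 covered 88.1%. Its best domain ranked 43 by score among all domains of the stretch in replicate 1 and 365 in replicate 2. The third, from 27045838 to 27053892, scored 1.24 and lay to 99.6% in replicate 1 and to 60.5% in replicate 2. The fourth, from 17436315 to 17443920, scored 1.23, with 99.8% in replicate 1 and 81.4% in replicate 2, and the fifth, from 25702396 to 25708102, scored 1.22, with 100% in replicate 1 and 64.0% in replicate 2. All 5 were covered by 1 domain in replicate 1.

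The 5 longest members under the same condition measured 9891 to 9996 bp. They lay at 24413689 to 24423684, 17072286 to 17082223, 23412267 to 23422178, 26234689 to 26244583 and 27802077 to 27811967. Their scores ran from 0.553 to 0.965. Replicate 2 listed them in 2 or 3 pieces except the last, while replicate 1 listed 1 domain over 4 of them and 2 over the one from 26234689. Except for the last, no domain of either replicate over these members reached 10 kb. The last lay inside a domain of 10288 bp of replicate 1.

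Without the condition on support, the 5 highest scores belonged to members of up to 2007 bp, which were singled out after their values were seen. The highest, 2.57, belonged to a member of 1017 bp from 8298863 to 8299879 that overlapped neither replicate. The second, 2.16, belonged to 1868 bp from 3533316 to 3535183, which lay 52.2 kb from the nearest domain of replicate 1 and 7.24 kb from that of replicate 2. The third, 1.99, belonged to 1003 bp from 3929561 to 3930563, 0.019 kb from a domain of replicate 1. The fourth, 1.64, lay from 8295721 to 8297727, next to the first, and 66.0% of it was in replicate 1 and none in replicate 2. The fifth, 1.37, belonged to 1611 bp from 3179399 to 3181009 and was found in replicate 2 alone. Short length did not hold past these ranks, since the median length of the 20 highest-scoring members was 6612 bp, against 1974 bp over all members. Of the 20 highest scores, 13 belonged to members found in both replicates, 1 each to replicate 1 alone and replicate 2 alone and 5 to neither, and 6 members measured under 2 kb.

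Short domains of the left arm of the same chromosome, 3L, and of 2L were selected by the same length and a midpoint over 2 Mb from the centromeric end. Arm 3R had 101 per Mb, against 114 on 3L and 101 on 2L. In the replicate lists 3R had 60.0 per Mb in replicate 1 and 84.2 in replicate 2, 3L had 69.9 in replicate 1 and 98.9 in replicate 2, and 2L had 62.1 in replicate 1 and 82.7 in replicate 2. 3R was below 3L in both replicates, below 2L in replicate 1 and above 2L in replicate 2. Median length was 1974 bp on 3R, 2055.5 bp on 3L and 1982 bp on 2L, and the median gap was 1661 bp on 3R, 1627 bp on 3L and 1794 bp on 2L. The share of members found in both was 32.9% on 3R, 35.4% on 3L and 34.0% on 2L, with overlapping intervals. The share found in neither was 15.5% (interval 14.1 to 16.9%) on 3R, 12.8% (interval 11.5 to 14.2%) on 3L and 13.6% (interval 12.1 to 15.1%) on 2L. Clusters held 30.5% of the members on 3R, 30.9% on 3L and 25.9% on 2L. Differences between arms were not tested.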

How the data were processed

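H3K9me1 was mapped by ChIP-seq in 2 ChIP libraries of larval nuclei, with 2 inputs, grouped by their titles. Bowtie 0.12.7, which aligns reads, is named in the submitters' processing notes. Coordinates are on FlyBase release 5, per the file headers. The sources used here give no region caller, threshold or read depth and do not say how the combined list was made. The authors deposited 3 region lists, each with a score per region whose scale is not stated. Scores were compared only within a list. Positions are 1-based. Counts, lengths and gaps all depend on these unknown settings and depths, so no interval from depth is given.

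Overlaps, gaps, runs and window counts were computed with Python 3.11.15 and numpy 2.4.6, exact binomial intervals with scipy 1.17.1 and figures with matplotlib 3.10.9. Windows of 500 kb started at 2 Mb, and a domain was placed by its midpoint. Interval functions were tested on simulated data against counting base by base. Members, lists and tests were chosen with earlier results of these data known. Named were the 5 densest and sparsest windows, the 5 largest clusters, the 5 longest gaps, and the 5 highest-scoring and longest members with 50% of their length in both replicates. The labels do not name separate collections of larvae for the replicates, so their spread may be technical. Alternatives covered overlap, length, score, position, window and cluster settings. Genes and sequence were not analysed, because no reference on release 5 was used here.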

Additional observations from a re-analysis of the deposited data

Results flagged for a closer look

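Beside the enriched domains, the combined list gives 8 regions of this stretch as depleted of H3K9me1, and the comparisons above do not use them. They were picked out because their number is above 3, which is not an estimate of false calls. Replicate 1 lists 0 there and replicate 2 lists 1. The 8 measured 1368 to 1664 bp, with authors' scores from -0.131 to -0.0016, and none overlapped a member. Each lay over a domain called enriched in exactly 1 replicate, 7 in replicate 1 and 1 in replicate 2. The nearest to the depleted region of replicate 2, from 15467098 to 15468752, ran from 15447323 to 15448824, with midpoints 19.9 kb apart. The depleted region of replicate 2 itself overlapped a member and a domain of replicate 1. How the lists came to hold such regions was not tested.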

How the results depend on the processing

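Of 56 alternative values for 10 results, 18 stayed within the interval, the SD or 1.5 times the count of the reported value and 38 moved. Removing or adding members moves gaps, clusters and covered shares by construction. Moving the midpoint limit to 0 or 4 Mb moved none of the 5 results it was tried on. The shares found in both, replicate 1 alone, replicate 2 alone and neither (32.9, 25.8, 25.8 and 15.5%) were 60.7, 21.2, 17.0 and 1.10% from 2000 bp, 54.3, 17.5, 17.6 and 10.6% at or above the median score, and 25.1, 28.1, 29.2 and 17.7% under 5000 bp. With 50% of the member covered the first 3 were 24.3, 31.1 and 28.1%, and with no length limit the first was 36.9%. The median gap (1661 bp) was 4330 bp from 2000 bp, 4894 bp at or above the median score, 2336 bp under 5000 bp and 1424.5 bp with no length limit. Clusters (117) numbered 61 with gaps to 1000 bp, 185 to 5000 bp, 308 with 3 or more members and 10 at or above the median score. Their share of members (30.5%) was 13.3, 62.8, 54.9 and 4.12% in that order, and 36.6% with no length limit. The 25% of windows with most members (35.0%) held 37.8% at 250 kb, 30.7% at 1 Mb, 38.9% from 2000 bp and 37.7% at or above the median score. Replicate coverage (21.1%) was 18.3 to 23.9% over leaving out a replicate, 29.1% with no length limit, 16.3% from 2000 bp and 14.1% at or above each median score. The median score of members found in both exceeded that of members found in neither by 0.161, by 0.197 from 2000 bp and by 0.098 under 5000 bp. For shares that moved, the cause was not tested. No paired analysis was possible because no result comes from a test and inputs carry no list of regions here.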
